A study of Mus musculus with 12 samples.

Results

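Disease-associated microglia are a state that microglia, the resident macrophages of the brain, take up around dying cells, myelin debris and protein deposits. In this state homeostatic genes are turned down and a shared set of genes for lipid uptake, lysosomal degradation and phagocytosis is turned up. TREM2, a surface receptor for lipids and apolipoproteins, signals through the adaptor TYROBP and is needed for the full state, while APOE, osteopontin and galectin-3 are among its secreted products. The 10 genes examined here are Trem2, Tyrobp, Clec7a, Apoe, Ch25h, Spp1, Lgals3, Gpnmb, Cst7 and Cd9. They were taken by gene symbol from the 21956 genes of the count table, and each symbol had 1 row. No value entered the rule, but the list was chosen with earlier results of these data known.

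The study examined whether fatty acid binding protein 4 in microglia shapes the brain's response to intracerebral hemorrhage (ICH). Bulk poly(A) RNA-seq was made from brain tissue of 12 mice, 3 in each of 4 groups. In the ICH groups perihematomal tissue was taken at 48 h after collagenase injection into the right striatum. In the sham groups tissue was taken in the same way after sham surgery, and the time was not given for them. The Sham-Fabp4fl_fl and ICH-Fabp4fl_fl groups carried floxed Fabp4 alleles. The Sham-Fabp4CKO and ICH-Fabp4CKO groups carried the same floxed alleles and 1 allele of a tamoxifen-inducible Cre driven by Tmem119, a microglial promoter, and were given tamoxifen before surgery. Whether the floxed controls also received tamoxifen, and the age of these lines, were not given in the sources used here, so an effect of the drug or the Cre cannot be told apart from an effect of the deletion. Each library came from 1 mouse, and whole tissue rather than sorted cells was sequenced. In such data fewer cells of a type and less RNA per cell cannot be told apart.

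Total counts ran from 15650822 to 22406226 per library. The mitochondrial share was 16.3% in ICH-Fabp4fl_fl mouse 1 and 7.90 to 11.9% in the others, and 4 Y-linked genes had 1 read in ICH-Fabp4CKO mouse 1 against 1302 to 2251 elsewhere. Fabp4 had 2, 1 and 2 counts in the Sham-Fabp4fl_fl libraries and 0 in each Sham-Fabp4CKO library. After ICH it had 46, 63 and 24 counts in the floxed mice and 5, 3 and 10 in the knockout mice, so the groups did not overlap. The log2 fold change of Fabp4 between the ICH groups was -2.94 ± 0.62 (SE), with an adjusted p of 0.295 in edgeR. Of 12 homeostatic microglia markers 11 were in the table, and each had counts in every library. Their summed level was 414 to 497 CPM (counts per 1e+06 counts of scaled library size) in the sham libraries.

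The letters upstream of the genes are shown first because the members rose together after ICH. RefSeq promoter windows (build GRCm38.p6) were held for 9 of the 10 genes, the exception being Tyrobp. The 250 bases before the start were searched on both strands for 3 motifs, namely TGACTCA, the AP-1 site, CACGTG, the E-box of MITF and TFE factors, and GAGGAA, the core of the site of PU.1, the lineage factor of macrophages and microglia. GAGGAA lay in at least 1 window of 4 of the 9 genes (Trem2, Apoe, Spp1 and Clec7a), against 25.9% of 27025 genes. Neither of the other motifs lay in any window of the 9 genes, against 5.16% of genes for TGACTCA and 6.86% for CACGTG. A match is a run of letters and does not show that a factor binds there. The windows of the 4 genes with a match follow, 5′ to 3′ on the strand of the gene, with the matched letters in capitals (TTCCTC is GAGGAA on the opposite strand). Where a gene has several windows, the one farthest upstream is given.
Trem2, chr17:48346151-48346400 (+ strand): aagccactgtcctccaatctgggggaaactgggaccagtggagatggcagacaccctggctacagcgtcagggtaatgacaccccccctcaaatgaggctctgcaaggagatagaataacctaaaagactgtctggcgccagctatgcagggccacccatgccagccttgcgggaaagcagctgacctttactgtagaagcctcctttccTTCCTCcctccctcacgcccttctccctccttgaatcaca
Clec7a, chr6:129472786-129473035 (- strand): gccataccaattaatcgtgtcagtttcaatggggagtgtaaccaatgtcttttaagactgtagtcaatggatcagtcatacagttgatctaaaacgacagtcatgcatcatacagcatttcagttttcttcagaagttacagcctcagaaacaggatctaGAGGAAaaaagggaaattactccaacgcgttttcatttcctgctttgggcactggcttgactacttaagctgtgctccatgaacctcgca
Apoe, chr7:19699189-19699438 (- strand): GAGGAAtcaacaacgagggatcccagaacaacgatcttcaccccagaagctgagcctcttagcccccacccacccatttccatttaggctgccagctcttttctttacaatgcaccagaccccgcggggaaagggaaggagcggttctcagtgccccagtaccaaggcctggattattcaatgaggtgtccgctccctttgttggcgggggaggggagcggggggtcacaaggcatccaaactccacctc
Spp1, chr5:104434861-104435110 (+ strand): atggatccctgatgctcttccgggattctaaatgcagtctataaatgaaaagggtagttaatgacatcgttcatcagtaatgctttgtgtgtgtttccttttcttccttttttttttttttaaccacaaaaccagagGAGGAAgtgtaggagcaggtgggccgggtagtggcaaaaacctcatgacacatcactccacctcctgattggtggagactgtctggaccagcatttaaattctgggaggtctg
In Clec7a the match began 90 bases before the start, in Spp1 113 and in Trem2 40, while in Apoe it began 250 bases before.

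**Figure D1:**
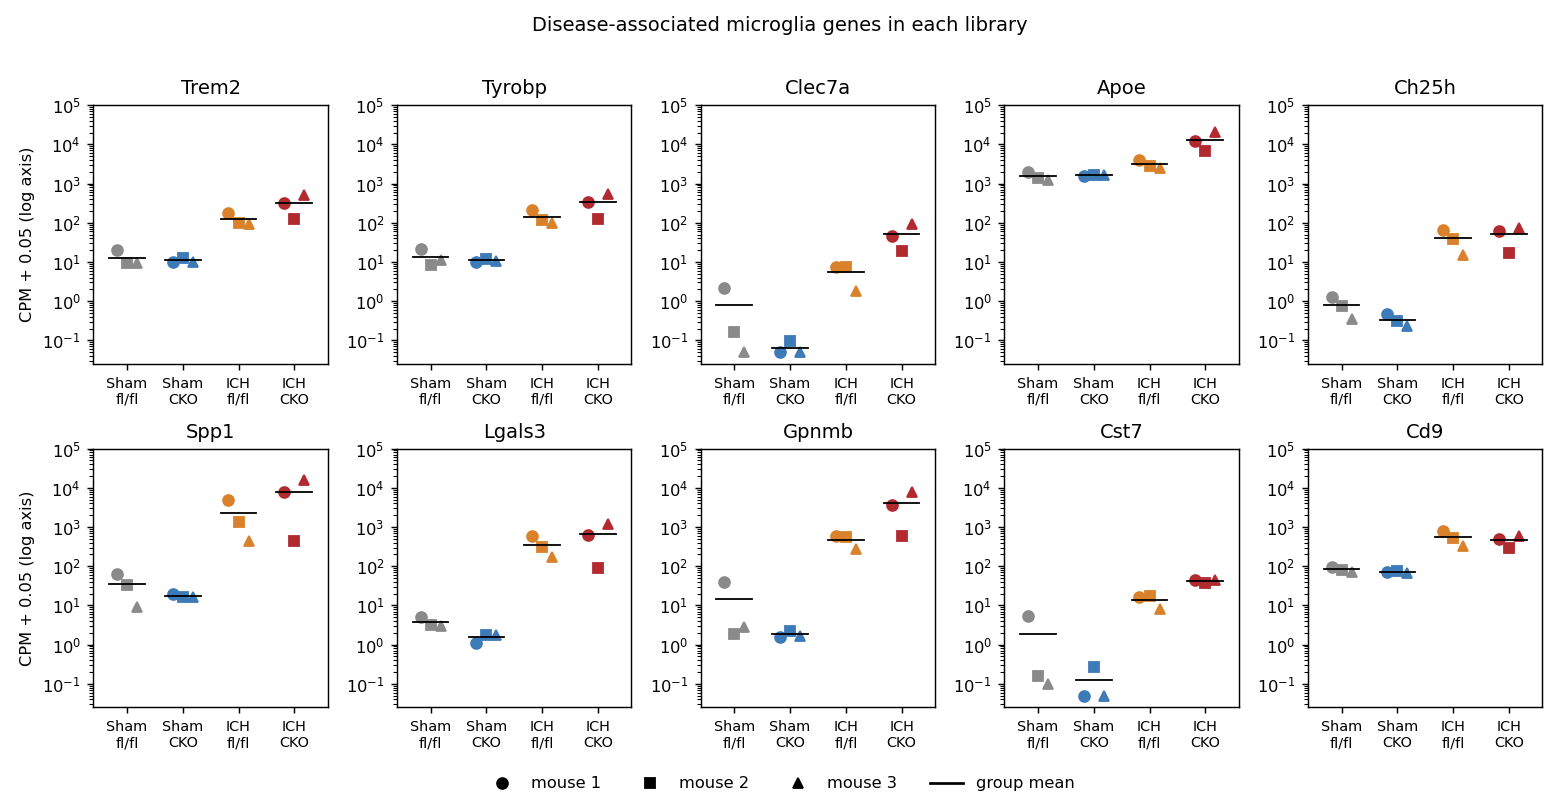
Level of each of the 10 genes in the 12 libraries (y axis, CPM + 0.05 on a log axis; x axis, group; symbols mark mouse 1, 2 and 3, lines the group means). The 6 ICH libraries lie above the 6 sham libraries for each gene except Clec7a, where Sham-Fabp4fl_fl mouse 1 (2.12 CPM) is above ICH-Fabp4fl_fl mouse 3 (1.81 CPM).

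Hemorrhage raised most of these genes in floxed mice and all of them in knockout mice. In ICH-Fabp4fl_fl against Sham-Fabp4fl_fl, 8 of the 10 genes were higher at an adjusted p under 0.05 (edgeR quasi-likelihood test, Benjamini-Hochberg over 14719 genes), against 26.2% of all genes tested. Clec7a and Cst7 were the exceptions. In ICH-Fabp4CKO against Sham-Fabp4CKO all 10 were higher, against 24.5% of 14737 genes. The ICH and sham libraries did not overlap for 9 genes in the floxed mice, where 61.8% of all genes did not, and for 10 in the knockout mice, where 62.1% did not. The median log2 fold change of the 10 genes was 3.29 in the floxed mice and 8.08 in the knockout mice, beside 0.02 and 0.01 over all genes tested. Without Sham-Fabp4fl_fl mouse 1 the median in the floxed mice was 6.29 and all 10 genes passed. As a share of all counts, the 10 genes took 0.140 to 0.237% in the sham libraries, 0.390 to 1.02% in ICH-Fabp4fl_fl and 0.849 to 4.31% in ICH-Fabp4CKO. The largest share was in ICH-Fabp4CKO mouse 3.

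**Figure D2:**
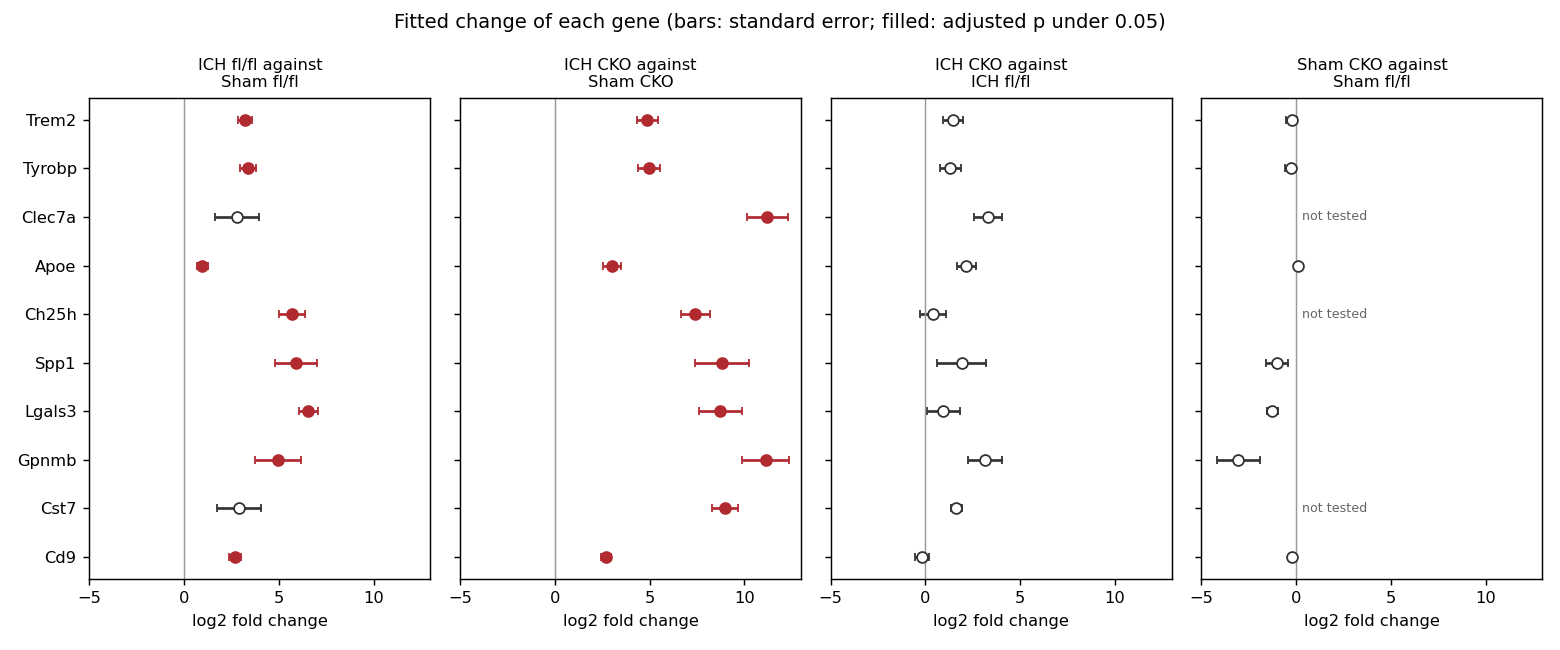
Fitted log2 fold change of each gene in 4 comparisons (x axis, log2 fold change; points, edgeR estimates; bars, standard error; filled points, adjusted p under 0.05). The changes with ICH are filled for 8 of 10 genes in floxed and 10 of 10 in knockout mice, and no point is filled in either comparison of genotypes.

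Between the genotypes after ICH, no gene of the 10 passed an adjusted p under 0.05 in edgeR, and nor did any of the 14600 genes tested (0%). By an unadjusted rule, namely a raw p under 0.05 with a change of 1.5-fold or more, 6 of the 10 were higher in ICH-Fabp4CKO (Trem2, Tyrobp, Clec7a, Apoe, Gpnmb and Cst7), against 4.40% of all genes, and none was lower. With DESeq2 on the same libraries 4 of these (Clec7a, Apoe, Gpnmb and Cst7) had an adjusted p under 0.05, against 1.75% of all genes. In one fit over all 12 libraries Apoe alone did (adjusted p = 0.0338, edgeR), against 1.02%. The levels of the ICH groups did not overlap for Clec7a, Apoe and Cst7, against 19.8% of all genes. The median log2 fold change of the 10 genes was 1.54, beside 0.06 over all genes.

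Trem2 (ENSMUSG00000023992), the lipid-sensing receptor, had 19.6, 9.58 and 9.35 CPM in Sham-Fabp4fl_fl mice 1, 2 and 3 and 9.94, 12.9 and 9.79 CPM in Sham-Fabp4CKO. After ICH it had 178, 98.1 and 94.5 CPM in the floxed mice and 323, 127 and 508 CPM in the knockout mice. Every ICH library was above every sham library, and ICH-Fabp4CKO mouse 2 fell within the floxed range. Trem2 was 9.30-fold higher with ICH in floxed mice (log2 fold change 3.22 ± 0.38 SE, adjusted p = 0.000922) and 29.4-fold higher in knockout mice (4.88 ± 0.55, adjusted p = 0.00549). Between the ICH groups the log2 difference was 1.44 (95% interval 0.19 to 2.69, unadjusted p = 0.0302, adjusted p = 0.364, edgeR).

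Tyrobp (ENSMUSG00000030579), the ITAM-bearing adaptor that carries the TREM2 signal, followed Trem2 closely. Its level was 20.8, 8.32 and 11.2 CPM in Sham-Fabp4fl_fl and 9.89, 12.1 and 10.7 CPM in Sham-Fabp4CKO. In ICH-Fabp4fl_fl it was 208, 121 and 98.3 CPM, and in ICH-Fabp4CKO 345, 126 and 544 CPM. The ratio of Tyrobp to Trem2 counts stayed between 0.869 and 1.23 in the 12 libraries. Tyrobp was 10.2-fold higher with ICH in floxed mice (adjusted p = 0.00106) and 31.1-fold higher in knockout mice (adjusted p = 0.00578). The difference between the ICH groups was 1.31 on the log2 scale (95% interval 0.000154 to 2.63, unadjusted p = 0.04998, adjusted p = 0.411, edgeR).

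Clec7a (ENSMUSG00000079293) encodes dectin-1, a C-type lectin receptor for beta-glucans that signals through SYK. It was close to absent without ICH, with 2 and 0 counts in Sham-Fabp4fl_fl mice 2 and 3 and 0, 1 and 0 counts in Sham-Fabp4CKO, but 44 counts (2.12 CPM) in Sham-Fabp4fl_fl mouse 1. After ICH its level was 7.32, 7.23 and 1.81 CPM in the floxed mice and 45.0, 18.5 and 90.5 CPM in the knockout mice. The lowest knockout library was above the highest floxed one. In floxed mice the change with ICH was 2.78 ± 1.16 on the log2 scale with an adjusted p of 0.0843. Without Sham-Fabp4fl_fl mouse 1 it was 6.39 ± 1.11 (adjusted p = 0.00807), and without ICH-Fabp4fl_fl mouse 3 it was 3.19 (adjusted p = 0.0478). In knockout mice 2698 counts after ICH stood against 1 count without it, a ratio of 3375 after scaling for library size with an exact 95% interval of 605.3 to 133400 that covers counting error only (adjusted p of the fit = 0.00478). Between the ICH groups Clec7a was 9.93-fold higher in the knockout mice (log2 3.31 ± 0.74, unadjusted p = 0.00351, adjusted p = 0.295, edgeR).

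Of 15 tested genes of TREM2 and dectin-1 signalling, 14 were higher and none lower with ICH in floxed mice, where 26.2% of all genes were higher and 19.3% lower. Inpp5d, the lipid phosphatase SHIP1 that restrains this signal, had the smallest p (log2 fold change 2.77 ± 0.16, adjusted p = 0.000262). Il34, a ligand of the CSF1 receptor, had the only negative value, -0.24 ± 0.29 (adjusted p = 0.519). In knockout mice 15 of 16 were higher, against 24.5% of all genes. After ICH none of the 16 passed between genotypes at the adjusted threshold, and Blnk, a scaffold of the same cascade, had the smallest p (1.56 ± 0.57, unadjusted p = 0.031, adjusted p = 0.365).

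Among the lipid genes, Apoe (ENSMUSG00000002985) had the highest mean level of the 10 in each group, although Spp1 was above it in ICH-Fabp4fl_fl mouse 1. APOE packages cholesterol for export and is made by astrocytes as well as by microglia. Its level was 2012, 1376 and 1246 CPM in Sham-Fabp4fl_fl and 1555, 1693 and 1680 CPM in Sham-Fabp4CKO. After ICH it was 4046, 2835 and 2459 CPM in the floxed mice and 11903, 6615 and 21086 CPM in the knockout mice. No library of one ICH group reached the other. The change with ICH in floxed mice was the smallest of the 10 genes, 1.95-fold (log2 0.97 ± 0.28, adjusted p = 0.0280), and it passed the threshold no longer without Sham-Fabp4fl_fl mouse 2 or 3 or ICH-Fabp4fl_fl mouse 1 or 2 (adjusted p 0.0538 to 0.125). In knockout mice the change was 8.05-fold (log2 3.01 ± 0.47, adjusted p = 0.00894), with adjusted p of 0.0545 to 0.0561 when any one sham knockout library was left out. In ICH-Fabp4CKO against ICH-Fabp4fl_fl, Apoe was 4.43-fold higher in the knockout mice (log2 2.15 ± 0.51, unadjusted p = 0.00449, adjusted p = 0.295, edgeR).

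Ch25h (ENSMUSG00000050370) encodes the enzyme that makes 25-hydroxycholesterol, an oxysterol that damps cholesterol synthesis. It had 25, 13 and 6 counts in Sham-Fabp4fl_fl and 9, 6 and 4 in Sham-Fabp4CKO. After ICH it rose to 66.8, 39.5 and 14.9 CPM in the floxed mice and to 60.2, 17.2 and 74.5 CPM in the knockout mice, and these ranges largely overlapped. It was 51.4-fold higher with ICH in floxed mice (log2 5.68 ± 0.67, adjusted p = 0.000919) and 172-fold higher in knockout mice (7.42 ± 0.74, adjusted p = 0.00478). The genotypes differed by 0.40 on the log2 scale after ICH, with a 95% interval of -1.19 to 1.99 (adjusted p = 0.834, edgeR).

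Of the 16 genes of lipid export and storage, 10 were higher and none lower with ICH in floxed mice, against 26.2% and 19.3% of all genes, and 14 were higher in knockout mice, against 24.5%. Msr1, a scavenger receptor for modified lipoproteins, had the smallest p in floxed mice (log2 fold change 8.87 ± 0.85, adjusted p = 0.000468). After ICH none passed between genotypes, while 4 were higher at the unadjusted rule (4.40% of all genes). Apoc1, an apolipoprotein encoded beside Apoe, had the smallest p (2.00 ± 0.53, unadjusted p = 0.00784, adjusted p = 0.314). Around 25-hydroxycholesterol, 2 of 8 genes were higher in floxed mice, a share near the 26.2% of all genes, and 4 were lower, against 19.3%. Gpr183, the receptor of a derived oxysterol, had the smallest p of those higher (3.01 ± 0.32, adjusted p = 0.000635). In the genotype comparison after ICH, Cyp7b1, which converts the oxysterol further, was at -0.60 ± 0.19 (adjusted p = 0.349).

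Of the secreted products, Spp1 (ENSMUSG00000029304), which encodes osteopontin, had an SD close to its mean in both ICH groups (2237.5 ± 2365.5 and 7904.7 ± 7599.8 CPM, SD, n = 3). It had 64.8, 32.4 and 9.04 CPM in Sham-Fabp4fl_fl and 19.3, 16.7 and 16.3 CPM in Sham-Fabp4CKO. After ICH it had 4920, 1345 and 448 CPM in the floxed mice and 7653, 434 and 15627 CPM in the knockout mice. The knockout group held both the lowest and the highest ICH library. Spp1 was 60.6-fold higher with ICH in floxed mice (log2 5.92 ± 1.12, adjusted p = 0.00567) and 454-fold higher in knockout mice (8.83 ± 1.43, adjusted p = 0.00963, and 0.0568 to 0.0573 without any one sham knockout library). The genotypes differed by 1.91 on the log2 scale after ICH, with a 95% interval of -1.19 to 5.01 (adjusted p = 0.579, edgeR).

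Lgals3 (ENSMUSG00000050335) encodes galectin-3, a lectin that binds damaged lysosomes and has been described as a ligand of TREM2. It had 4.91, 3.12 and 2.89 CPM in Sham-Fabp4fl_fl and 1.06, 1.75 and 1.75 CPM in Sham-Fabp4CKO. The highest sham knockout library thus lay below the lowest sham floxed one. After ICH its level was 575, 319 and 177 CPM in the floxed mice and 644, 89.5 and 1211 CPM in the knockout mice. The change with ICH in floxed mice was 94.1-fold (log2 6.56 ± 0.51, adjusted p = 0.00035), the largest of the 10 genes with all libraries, though below Gpnmb and Cst7 without Sham-Fabp4fl_fl mouse 1. In knockout mice it was 426-fold (8.73 ± 1.14, adjusted p = 0.00634). The ICH groups differed by 0.93 on the log2 scale, with a 95% interval of -1.14 to 3.01 (adjusted p = 0.691, edgeR).

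The receptors and partners of these secreted proteins were higher with ICH in 7 of 8 cases in each genotype, against 26.2% of all genes in floxed and 24.5% in knockout mice, and none was lower. Cd44, which binds osteopontin and hyaluronan, had the smallest p in floxed mice (log2 fold change 4.45 ± 0.35, adjusted p = 0.00035). None of the 8 passed between the ICH groups, and Itgb5, an integrin subunit that binds osteopontin, had the smallest p (1.21 ± 0.41, unadjusted p = 0.0219, adjusted p = 0.35).

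Gpnmb (ENSMUSG00000029816), a glycoprotein of lysosomes and the cell surface, had 1.81 and 2.79 CPM in Sham-Fabp4fl_fl mice 2 and 3, 40.0 CPM in mouse 1, and 1.48, 2.24 and 1.61 CPM in Sham-Fabp4CKO. After ICH it had 609, 558 and 271 CPM in the floxed mice and 3655, 588 and 7754 CPM in the knockout mice. Knockout mice 1 and 3 were above every floxed mouse, while knockout mouse 2 lay between floxed mice 1 and 2. Gpnmb was 31.2-fold higher with ICH in floxed mice (log2 4.96 ± 1.20, adjusted p = 0.0142), and 7.60 ± 0.54 on the log2 scale without Sham-Fabp4fl_fl mouse 1 (adjusted p = 0.00115). In knockout mice the change was 2248-fold (11.1 ± 1.24, adjusted p = 0.00549). Between the ICH groups it was 8.75-fold higher in the knockout mice (3.13 ± 0.90, unadjusted p = 0.0114, adjusted p = 0.332, edgeR). Relative to Trem2, Gpnmb counts were 0.149 to 0.298 in 5 sham libraries and 2.04 in Sham-Fabp4fl_fl mouse 1, 2.87 to 5.69 in ICH-Fabp4fl_fl, and 11.3, 4.61 and 15.3 in ICH-Fabp4CKO.

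Cst7 (ENSMUSG00000068129) encodes cystatin F, an inhibitor of lysosomal cathepsins. It had 110, 2 and 1 counts in Sham-Fabp4fl_fl and 0, 5 and 0 counts in Sham-Fabp4CKO. After ICH it had 16.6, 17.5 and 8.18 CPM in the floxed mice and 44.1, 37.9 and 43.6 CPM in the knockout mice. Cst7 was the gene with the least spread in the ICH-Fabp4CKO group (41.9 ± 3.45 CPM, SD, n = 3), and the ICH groups did not overlap. In floxed mice the change with ICH was 2.88 ± 1.16 on the log2 scale (adjusted p = 0.0772), and 7.24 ± 0.62 without Sham-Fabp4fl_fl mouse 1 (adjusted p = 0.00126). In knockout mice 2191 counts stood against 5, a ratio of 548.2 with an exact 95% interval of 234.5 to 1690 for counting error only (adjusted p of the fit = 0.00478). After ICH it was 3.11-fold higher in the knockout mice (log2 1.64 ± 0.29, unadjusted p = 0.000979, adjusted p = 0.282, edgeR).

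Cd9 (ENSMUSG00000030342), a tetraspanin that organises membrane receptors and is also made by glia other than microglia, had 98.5, 81.9 and 70.3 CPM in Sham-Fabp4fl_fl, 70.3, 75.6 and 68.1 CPM in Sham-Fabp4CKO, 777, 535 and 330 CPM in ICH-Fabp4fl_fl and 502, 300 and 584 CPM in ICH-Fabp4CKO. It rose 6.33-fold with ICH in floxed mice (log2 2.66 ± 0.32, adjusted p = 0.000924) and 6.49-fold in knockout mice (2.70 ± 0.27, adjusted p = 0.00478). The interaction, that is the difference between these changes, was -0.02 on the log2 scale with a 95% interval of -0.97 to 0.94, and its sign depended on the setting. The difference between the ICH groups was -0.18 on the log2 scale with a 95% interval of -1.08 to 0.73 (adjusted p = 0.876, edgeR), and its sign turned when ICH-Fabp4fl_fl mouse 1 or ICH-Fabp4CKO mouse 2 was left out.

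Of 24 tested genes of the same microglial state outside the 10, 20 were higher and 1 lower with ICH in floxed mice, against 26.2% and 19.3% of all genes, and 23 of 25 were higher in knockout mice, against 24.5%. Ctsd, a lysosomal protease, had the smallest p of those higher (log2 fold change 3.13 ± 0.31, adjusted p = 0.000518), and Timp2, a metalloproteinase inhibitor, was the one lower (-0.65 ± 0.17, adjusted p = 0.0193). None of the 25 passed between the ICH groups at the adjusted threshold, and 7 were higher at the unadjusted rule, against 4.40% of all genes. Atp6v0d2, a subunit of the lysosomal proton pump, had the smallest p (5.70 ± 1.14, unadjusted p = 0.00194, adjusted p = 0.295), while among those lower it was Fth1, the ferritin heavy chain (-0.93 ± 0.42, adjusted p = 0.436).

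Without hemorrhage, 7 of the 10 genes had enough counts to be tested between genotypes, and none passed the adjusted threshold, against 16 of 14395 genes (0.111%), all of them lower. At the unadjusted rule Lgals3 and Gpnmb were lower in Sham-Fabp4CKO, against 3.23% of all genes. Lgals3 was the one gene of the 10 whose sham groups did not overlap, against 14.8% of all genes. Its log2 difference was -1.25 ± 0.31 (unadjusted p = 0.00416, adjusted p = 0.372 in edgeR), and DESeq2 gave it an adjusted p of 0.0480, with 0.966% of all genes lower. The Gpnmb value of -3.05 ± 1.14 became -0.37 ± 0.33 without Sham-Fabp4fl_fl mouse 1. Without Sham-Fabp4fl_fl mouse 3, 4 genes were lower in edgeR (Spp1, Gpnmb, Lgals3 and Cd9), with 2862 genes passing in all (19.6%).

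Sham-Fabp4fl_fl mouse 1 stood apart in these genes. It had the highest level of the 6 sham libraries in all 10 genes and in 19 of the 25 other genes of the microglial state, against 26.5% of 15089 genes. Its excess was uneven. Trem2 was at 19.6 CPM where the other mice of the group had 9.35 and 9.58 CPM, whereas Gpnmb was at 40.0 CPM where they had 1.81 and 2.79 CPM. Its summed homeostatic markers (497 CPM) were the highest of the sham libraries, whose others had 414 to 479 CPM. Its levels of Cst7 (5.30 CPM) and Clec7a (2.12 CPM) approached or passed the lowest ICH-Fabp4fl_fl library (8.18 and 1.81 CPM).

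The interaction term, which asks whether the response to ICH differed by genotype, passed the adjusted threshold for none of the 10 genes in edgeR, against 3 of 15089 genes (0.0199%). It was above 0 for 9 of them, and 6 (Trem2, Tyrobp, Clec7a, Apoe, Gpnmb and Cst7) passed the unadjusted rule, against 4.61% of all genes. DESeq2 called 3 (Apoe, Gpnmb and Clec7a), against 1.21%. The values of Clec7a, Gpnmb and Apoe were 8.38 ± 2.12, 6.12 ± 1.63 and 2.00 ± 0.54 on the log2 scale, and 4.70 ± 3.20, 3.43 ± 1.12 and 1.76 ± 0.57 without Sham-Fabp4fl_fl mouse 1. The count at the unadjusted rule fell to 2 without that library. Without ICH-Fabp4CKO mouse 2, Apoe, Gpnmb and Clec7a passed the adjusted threshold (adjusted p 0.0296 to 0.0485, edgeR).

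The mice of the ICH-Fabp4CKO group also differed from one another. Mouse 2 had the lowest level of the group in all 10 genes, against 43.2% of 15089 genes, and mouse 3 the highest in 9 of them, against 37.4%. In ICH-Fabp4fl_fl, mouse 3 was the lowest in all 10, against 45.6%, and mouse 1 the highest in 9, against 43.4%. Markers of other cells moved with these differences. Monocyte and macrophage markers summed to 2622, 510 and 3272 CPM in ICH-Fabp4CKO mice 1, 2 and 3 and to 2438, 1446 and 644 CPM in ICH-Fabp4fl_fl. Neuronal markers summed to 2751, 5446 and 1890 CPM and to 1780, 3121 and 4777 CPM. The mouse of each group with the lowest levels of the 10 genes thus had the lowest monocyte and macrophage sum and the highest neuronal sum. Most of the monocyte and macrophage sum was Fn1 (means of 1406 CPM in ICH-Fabp4CKO and 947 CPM in ICH-Fabp4fl_fl). Not every marker followed the sum, as Ly6c2 was lowest in ICH-Fabp4CKO mouse 3 (6.94 CPM). The part of these cells in the levels was not tested.

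Over the 6 ICH libraries the 10 genes did not move as one. Trem2, Tyrobp, Apoe, Gpnmb and Clec7a correlated with each other at a Pearson r of log2 CPM of 0.875 or more, and Spp1, Lgals3 and Ch25h at 0.932 or more. These sets were not separate, as Spp1 also had 0.943 with Tyrobp, 0.9 with Trem2 and 0.86 with Gpnmb. With Apoe and with Clec7a it had 0.725. Cd9 had an r of 0.909 with Ch25h and 0.195 with Apoe, and Cst7 had 0.950 with Clec7a and 0.333 with Lgals3. These values are over 6 libraries that hold both genotypes and are a description only. Outside the 10 genes, the levels most like Trem2 over all 12 libraries were those of C1qa (r = 0.998), C1qc (0.998) and Mpeg1 (0.996), and for Tyrobp those of C1qa, Cd68 and C1qc (0.998 each). Gpnmb was nearest to Lyz2, Itgax and Ly9 (0.992 to 0.994), and Cst7 to Itgax (0.983), Ly9 (0.971) and Csf3r (0.970). Lgals3 was nearest to Capg, Ctsc and Atf3 (0.997 to 0.998), and Ch25h to Atf3, Msn and Gsap (0.996 to 0.997). Apoe was nearest to Atp6v0d2 (0.985), Clec7a to Trim65 (0.986), Spp1 to Mapkapk2 (0.995) and Cd9 to Arpc1b (0.996). Over the 6 ICH libraries alone the nearest genes were Ctsa for Trem2, Dhrs3 for Tyrobp, Cd22 for Apoe, Snx8 for Spp1, Mfap4 for Gpnmb, Dusp4 for Cst7, Sox4 for Clec7a, Wdr1 for Lgals3, Cmtm8 for Cd9 and Il13ra1 for Ch25h (r 0.991 to 0.999). Each nearest gene is the highest r picked from many genes, which with 6 libraries gives high values by itself. Over 12 libraries r also holds the step from sham to ICH that many genes share. These lists too are a description only.

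**Figure D3:**
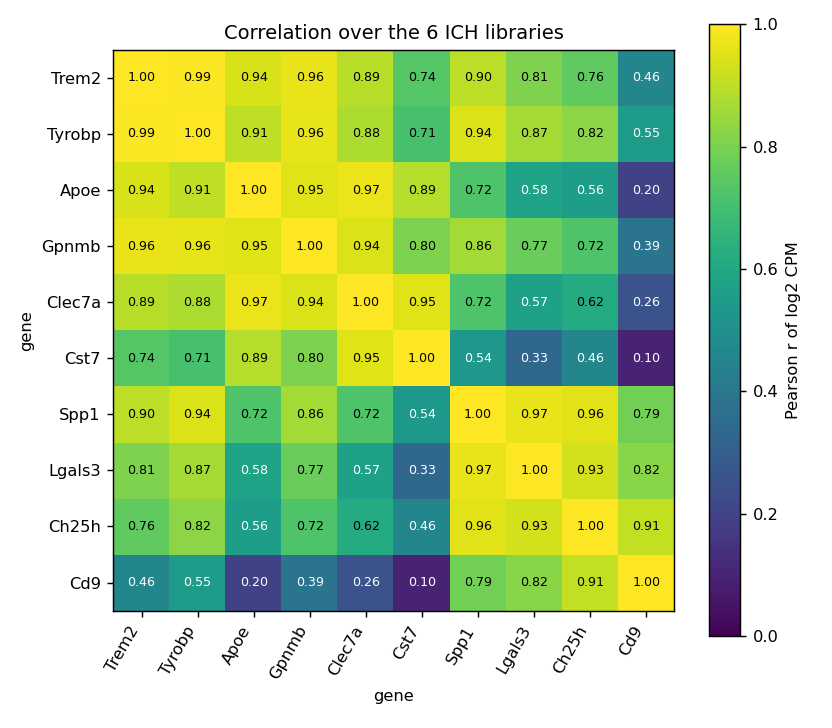
Pearson r of log2 CPM between each pair of the 10 genes over the 6 ICH libraries (both axes, gene; colour and number, r). Trem2, Tyrobp, Apoe, Gpnmb and Clec7a hold values of 0.875 or more with each other, and Cd9 has its lowest values with Cst7 (0.10) and Apoe (0.20).

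Per transcript length, the mean levels ranked Apoe, Cd9, Tyrobp, Spp1 and Trem2 highest in both sham groups, and Apoe, Spp1, Cd9, Tyrobp and Lgals3 in ICH-Fabp4fl_fl. The place of Spp1 differed between the sham libraries. In Sham-Fabp4fl_fl it was above Tyrobp in mice 1 and 2, but in mouse 3 below Tyrobp and Trem2 (15.1 against 49.8 and 21.6). In Sham-Fabp4CKO mouse 2 it was below Trem2 (27.0 against 28.9). On this scale (counts per length of the main transcript, scaled to the same sum in each library) the ICH-Fabp4fl_fl means were 4157.5 ± 500.4 for Apoe, 2584 ± 2412 for Spp1, 829 ± 240 for Cd9, 468 ± 117 for Tyrobp, 460 ± 197 for Lgals3, 244 ± 82.5 for Gpnmb, 211 ± 46.3 for Trem2, 53.1 ± 28.2 for Ch25h, 27.1 ± 9.74 for Cst7 and 14.4 ± 8.21 for Clec7a (SD, n = 3). The ranges of neighbours in this order overlapped, except those of Trem2 and Ch25h. Within every ICH-Fabp4fl_fl library Spp1 lay above Cd9, Cd9 above Tyrobp and Lgals3 above Gpnmb. The same held for Trem2 above Ch25h, Ch25h above Cst7 and Cst7 above Clec7a. The order of Apoe and Spp1, of Tyrobp and Lgals3, and of Gpnmb and Trem2 differed between the libraries. In ICH-Fabp4CKO Apoe (19539 ± 9350) and Spp1 (10665 ± 9886) were followed in mean by Gpnmb (2206 ± 1881). Gpnmb stood above Tyrobp (1244 ± 692) in mean and in mice 1 and 3, but below it in mouse 2 (371 against 521). Clec7a (150 ± 96.3) stood above Ch25h (76.0 ± 41.2) in mean and in each mouse. Their values in mice 1, 2 and 3 were 136, 61.1 and 252 against 93.0, 29.0 and 106.

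Marker genes of other cells moved with genotype after ICH. At the unadjusted rule, which 4.40% of all genes met as higher and 4.43% as lower in ICH-Fabp4CKO, all 8 oligodendrocyte markers and all 7 endothelial markers were lower, with summed levels of 7326 to 11857 against 19323 to 29360 CPM and of 300 to 383 against 543 to 1137 CPM, and none passed the adjusted threshold. Mog had the smallest p of the former (log2 fold change -1.65 ± 0.26, adjusted p = 0.230) and Cldn5 of the latter (-2.15 ± 0.31, adjusted p = 0.209). Neutrophil markers were higher at the unadjusted rule in 6 of 9, with a summed level of 77.8 to 389 CPM against 57.0 to 123 CPM, and Csf3r had the smallest p (1.19 ± 0.26, adjusted p = 0.295). Monocyte and macrophage markers summed to 510 to 3272 CPM against 644 to 2438 CPM, with 1 of 11 (Ms4a7, 1.96 ± 0.76, adjusted p = 0.389) higher at the unadjusted rule. In the sham libraries the sums were 6.01 to 14.9 CPM for neutrophils and 83.6 to 111 CPM for monocytes and macrophages. Most of the latter was Fn1 (means of 61.2 CPM in Sham-Fabp4fl_fl and 50.9 CPM in Sham-Fabp4CKO) and Vcan (22.1 and 24.3 CPM). Border macrophage markers summed to 145 to 1659 CPM in ICH-Fabp4CKO and 175 to 514 CPM in ICH-Fabp4fl_fl. Most of this sum was Stab1 (means of 734 and 226 CPM), and none of the 7 markers met the unadjusted rule. Of the 7, 3 had a log2 fold change above 0 and 4 below, with a median of -0.08. Homeostatic microglia markers summed to 1653 to 4655 CPM in ICH-Fabp4CKO and 1642 to 1890 CPM in ICH-Fabp4fl_fl, and 3 of 11 were higher at the unadjusted rule. Of these, Gpr34 had the smallest p (0.79 ± 0.24, adjusted p = 0.341). The part of any of these cells in the levels of the 10 genes was not tested.

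With ICH itself, where 26.2% of all genes were higher and 19.3% lower in floxed mice, 11 of 11 monocyte markers, 6 of 7 neutrophil markers and 9 of 11 homeostatic microglia markers were higher, with Ms4a7 (log2 fold change 5.92 ± 0.44, adjusted p = 0.00034), Mmp8 (8.09 ± 0.56, adjusted p = 0.000305) and Olfml3 (3.19 ± 0.20, adjusted p = 0.000281) at the smallest p. Of 10 neuronal markers 5 were lower, with Slc17a7 at the smallest p (-3.83 ± 0.88, adjusted p = 0.0117), and of 7 endothelial markers all were higher, with Cldn5 at the smallest p (2.44 ± 0.30, adjusted p = 0.00101). Border macrophage markers were higher in 4 of 7 (Stab1, 4.35 ± 0.37, adjusted p = 0.000362), pericyte and fibroblast markers in 8 of 8 and erythroid markers in 3 of 5. The counts for astrocyte markers (3 of 9, with 1 lower), oligodendrocyte markers (2 of 8), oligodendrocyte precursor markers (1 of 5) and dendritic cell markers (1 of 3) were near the share over all genes. Clec7a, Cst7, Gpnmb and the other members are expressed by blood-derived macrophages as well as by microglia, and the part of those cells was not tested. In knockout mice the counts of higher markers were 11 of 11 for monocytes, 7 of 9 for neutrophils, 9 of 11 for homeostatic microglia and 6 of 7 for border macrophages, against 24.5% of all genes.

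Set against the summed homeostatic markers of the same library, a scale chosen after the levels were known, the members separated. Per 100 CPM of these markers, Apoe was 145 to 214 in ICH-Fabp4fl_fl and 377 to 453 in ICH-Fabp4CKO, and Clec7a 0.106 to 0.441 and 1.12 to 1.94. Neither gene's groups overlapped. Trem2 was 5.56 to 9.41 against 7.71 to 10.9 and Tyrobp 5.79 to 11.0 against 7.60 to 11.7, so that both overlapped. Gpnmb was 15.9 to 34.0 against 35.6 to 167, and Cst7 0.482 to 1.06 against 0.937 to 2.29. Cd9 was lower in every knockout library, at 12.6 to 18.1 against 19.4 to 41.1. Spp1, Lgals3 and Ch25h overlapped. Without ICH, Apoe was 298 to 405 on this scale in Sham-Fabp4fl_fl and 354 to 395 in Sham-Fabp4CKO. Every sham library was thus above every ICH-Fabp4fl_fl library for Apoe. Cd9 was 16.8 to 19.8 in Sham-Fabp4fl_fl and 15.8 to 16.6 in Sham-Fabp4CKO, and the latter lay within the ICH-Fabp4CKO range. The other genes had higher group means with ICH than without it in both genotypes. In Sham-Fabp4fl_fl mouse 1, however, Cst7 (1.07) was above every ICH-Fabp4fl_fl library (0.482 to 1.06). Clec7a in that mouse (0.427) lay within the ICH-Fabp4fl_fl range (0.106 to 0.441). No test was run on these ratios.

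**Figure D4:**
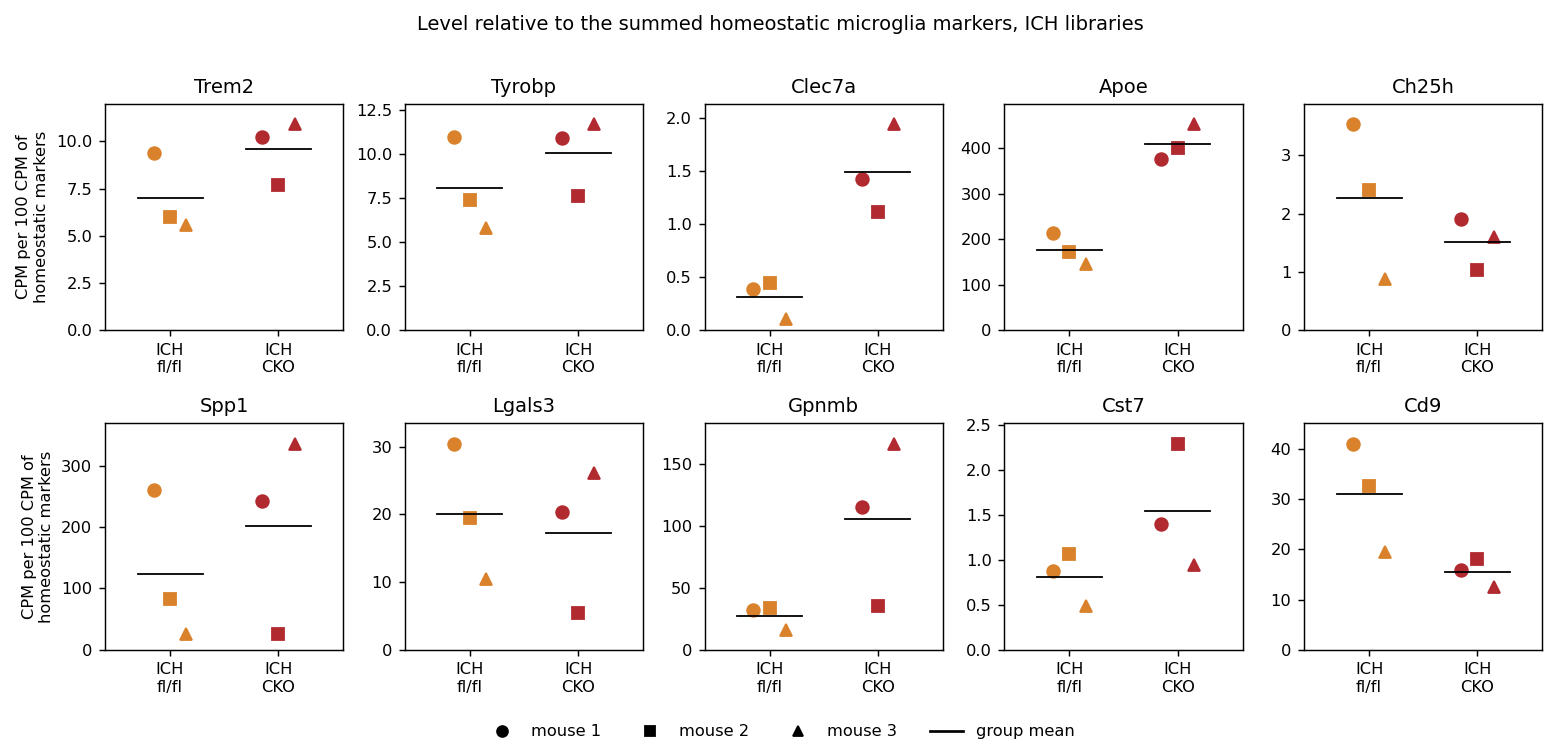
Level of each gene per 100 CPM of the summed homeostatic microglia markers in the 6 ICH libraries (y axis, linear from 0; x axis, genotype; symbols mark mouse 1, 2 and 3, lines the means). Apoe, Clec7a and Gpnmb lie higher in all 3 knockout mice, Cd9 lies lower, and Trem2 and Tyrobp overlap.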

How the data were processed

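Perihematomal tissue, or tissue taken in the same way after sham surgery, of 12 mice (4 groups of 3) was profiled by poly(A) RNA-seq. The authors deposited estimated counts per gene for all libraries, not normalized, of which 7.36 to 8.69% of values per library were not whole. The submitters' processing notes name Bowtie2 2.2.8, HISAT2, StringTie 1.3.1 and DESeq2, and the genome build was not given in the sources used here. Estimated counts share reads between similar genes.

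Counts were rounded and tested in edgeR 4.0.16 (R 4.3.3, limma 3.58.1) by the quasi-likelihood test with TMM scaling and filterByExpr (minimum count 10, minimum total 15). Each comparison was fitted on its own groups and the interaction on all 12 libraries, and p-values were adjusted over all genes tested (Benjamini-Hochberg, threshold 0.05). Standard errors and 95% intervals were derived from the F statistic. DESeq2 1.42.0 and the other alternatives are given in the closing section. CPM used 1 TMM scale over the 12 libraries. The code was tested on simulated counts. Tables and plots used Python 3.11.15, numpy 2.4.6, pandas 2.3.3 and matplotlib 3.10.9.

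The 10 genes, the marker and pathway lists and the motifs were chosen with earlier results of these data known. From each other list, the text names the gene with the smallest p in a direction in ICH-Fabp4fl_fl against Sham-Fabp4fl_fl or ICH-Fabp4CKO against ICH-Fabp4fl_fl, and likeness is the Pearson r of log2 CPM, the 3 nearest genes being kept. Some genes that this rule names are not reported here. Replicate numbers come from the sample titles. What these numbers stand for was not given in the sources used here, and they were not used as a block.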

Additional observations from a re-analysis of the deposited data

How the results depend on the processing

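Of the alternatives to the log2 fold changes, 563 kept the direction and the side of the threshold, 23 passed it newly, 10 no longer passed it and 15 reversed, and the cause was not tested. The number of genes of the 10 passing in ICH-Fabp4CKO against ICH-Fabp4fl_fl was 0 in edgeR, 4 with DESeq2, 1 in one fit over 12 libraries and 6 at the unadjusted rule, while over all genes DESeq2 called 578 and the fit over 12 libraries 362 against 0. In Sham-Fabp4CKO against Sham-Fabp4fl_fl it was 1 with DESeq2 and 2 at the unadjusted rule, and 0 to 4 with one library left out (4 without Sham-Fabp4fl_fl mouse 3), while DESeq2 called 150 genes in all against 16. For the interaction it was 3 with DESeq2 and 6 at the unadjusted rule, and 0 to 3 with one library left out (3 without ICH-Fabp4CKO mouse 2), while DESeq2 called 266 genes in all against 3. In ICH-Fabp4CKO against Sham-Fabp4CKO the number of all genes passing ran from 751 to 10099 with one library left out, against 5247.

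Signs turned where the change was near 0. With one library left out, the log2 difference between the ICH groups ran from -0.47 to 0.13 for Cd9, positive without ICH-Fabp4fl_fl mouse 1 or ICH-Fabp4CKO mouse 2, and from -0.0355 to 0.94 for Ch25h, negative without ICH-Fabp4fl_fl mouse 3. Between the sham groups it ran from -0.41 to 0.20 for Trem2, -0.54 to 0.16 for Tyrobp and -0.0274 to 0.32 for Apoe. The Cd9 interaction was 0.0487 with relative log expression scaling and with DESeq2, 0.0143 on total counts, 0.03999 without a filter, and -0.28 to 0.35 with one library left out.

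With the replicate number as a block, the genes of the 10 passing numbered 10 and 10 with ICH in floxed and knockout mice and 0 in the other comparisons. The block added Cst7 (log2 3.99, adjusted p = 0.0267) and Clec7a (3.56, adjusted p = 0.0245) in floxed mice and turned the Cd9 interaction to 0.0021. Correlations of the deviations of same-numbered libraries were 0.241, 0.0556 and 0.176 in ICH-Fabp4fl_fl against Sham-Fabp4fl_fl, 0.418, -0.189 and -0.647 between the ICH groups, 0.0797, -0.25 and -0.131 between the sham groups, and -0.00314, 0.0168 and 0.00683 in ICH-Fabp4CKO against Sham-Fabp4CKO. In no comparison was every pair over 0.1.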
